A study of Mus musculus with 3 samples.

Results

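The genes described here encode enzymes that break down amino acids and pyrimidines, together with the creatine-synthesis and polyamine enzymes that draw on the same amino acids. They were chosen by name from a list of 57 genes, and a row of the array's value table belonged to a gene when its platform symbol, brought to the current mouse symbol, was on the list. Of the 57 genes, 43 had at least 1 row (46 rows in all), among 10698 named genes with a row in the whole table. A log ratio on all 3 arrays was available for 34 of them, and those 34 were tested.

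Total RNA of kidney from BALB/c mice was collected on day 11 after they had received anti-GBM antibody, which binds the glomerular basement membrane and sets off glomerulonephritis, an inflammation of the glomeruli, and was labelled with Cy5. On each of 3 two-colour arrays it was hybridised against a single kidney RNA pool, made from 5 normal BALB/c mice and labelled with Cy3. Each array carried a different nephritic mouse, called mouse 1, 2 and 3 by the replicate number in its label, the dyes were not swapped, and the pool counts as 1 control sample. Age and sex of the mice, the antibody's dose and its source are not given in the labels used here.

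Every value below is a log ratio of nephritic kidney to the normal pool in the deposited log unit, after each array was centred on its median. The base of the logarithm is not stated. The labels place nephritic RNA in Cy5 without saying which dye is the numerator, so "lower" here means likely lower in nephritic kidney. A gene was called when the mean of its 3 log ratios differed from 0 at an adjusted p under 0.05 in limma's moderated test over all 8449 features. That test measures the spread between nephritic mice and leaves out the spread between normal mice and any dye bias. In RNA of a mixed tissue, fewer cells of a type and less RNA per cell cannot be told apart.

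Breakdown of an amino acid usually starts with removal of its amino group, after which the carbon skeleton is oxidised in the mitochondrion toward intermediates of the TCA cycle. Uracil and thymine are opened and cleaved by a separate cytosolic chain of enzymes. Liver carries most of these pathways, and the proximal tubule of the kidney shares many of them. Kidney also makes the creatine precursor guanidinoacetate, makes arginine from citrulline, degrades betaine-derived and D-amino acids, and releases ammonia from glutamine.

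Most of the measured enzymes were lower in nephritic kidney. Of the 34 tested, 20 fell and 0 rose, beside 22.3% of all features called lower and 20.8% called higher. The 14 that were not called had means between -0.33 and 0.22, and 10 of these means were below 0. The median of the 34 means was -0.33, with quartiles at -0.66 and -0.16, against a median of -0.0081 over all features, with quartiles at -0.20 and 0.185. All 3 mice were below 0 in 26 of the 34 genes, 76.5%, as in 35.4% of all features, and all 3 were above 0 in 1. Means of -1 or less were found for 5 of the 34 genes (14.7%) and for 1.49% of all features. The genes had been listed with earlier results of these data known, so these shares describe the list.

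**Figure D1:**
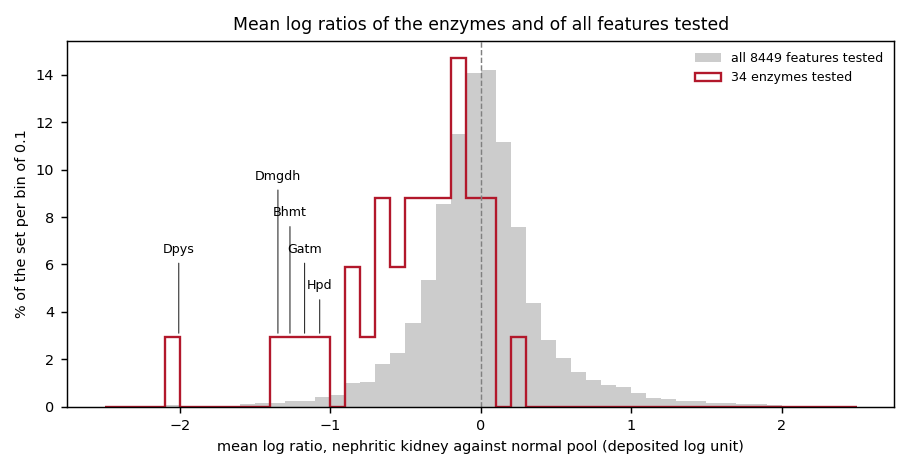
Histogram of the mean log ratio (x axis, deposited log unit, bins of 0.1) as a percentage of each set (y axis), grey for all 8449 features tested and red outline for the 34 enzymes. The enzymes' median is -0.33 and that of all features -0.0081, and Dpys, Dmgdh, Bhmt, Gatm and Hpd are the 5 enzymes at -1 or less.

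The 20 genes that fell had means from -2.01 to -0.25, adjusted p-values from 5.04e-05 to 0.0307, and log ratios below 0 in every mouse. When exact 0 values, which fill about 3 of 10 cells and were treated as missing, were kept as ratios, 43 genes were tested. Of these, 5 were called lower: Dpys, Gatm, Ivd and Haao from among the 20, and Hibadh. In that setting the number of features tested rose to 13241. The calls over the whole table fell from 3638 to 986, of which 437 were lower and 549 higher. The genes that lost their call kept similar values (Bhmt -1.25, Dmgdh -1.33, Hpd -1.05). An unmoderated one-sample test called 0 of the 34 and 0 of all features, with 15 of the 34 and 3060 of all features at an unadjusted p under 0.05.

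**Figure D2:**
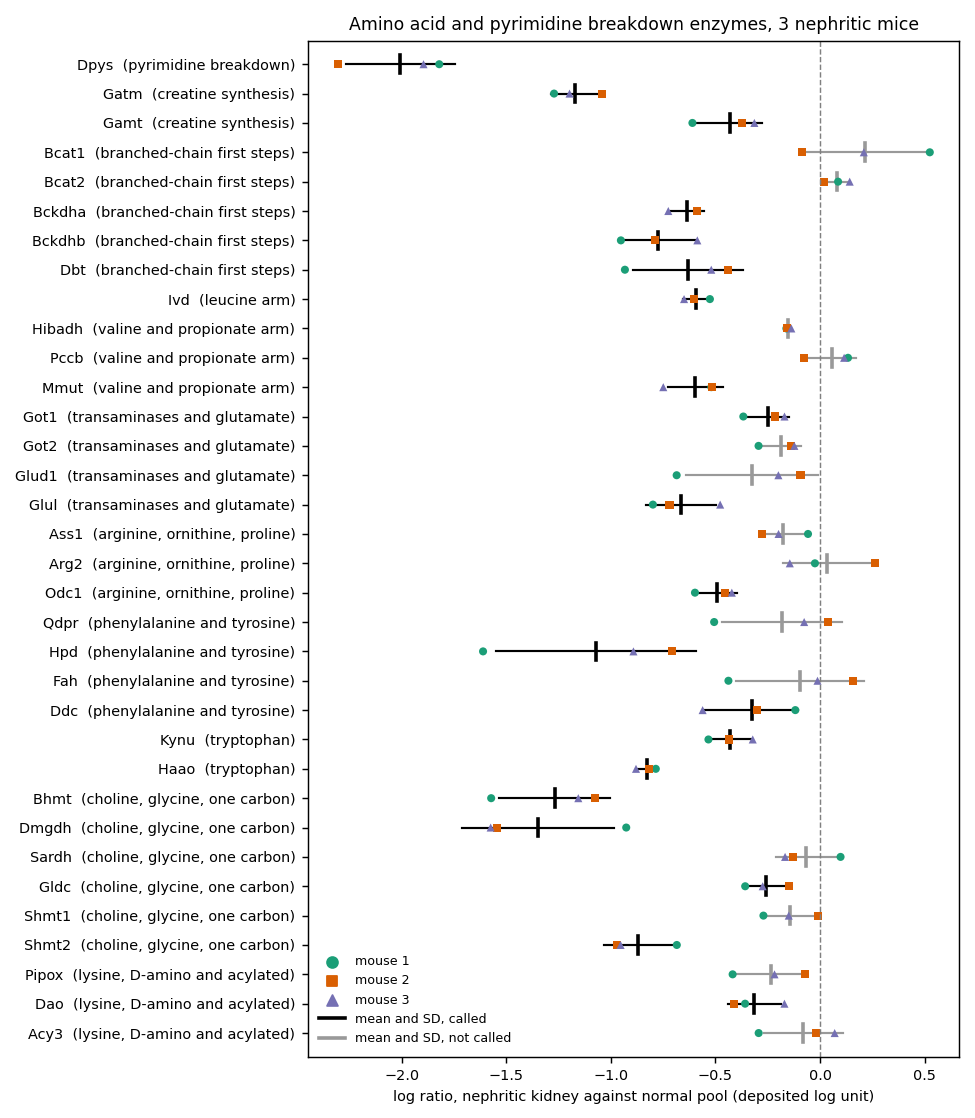
Log ratio of each of the 34 enzymes (rows, grouped by pathway) in mouse 1, mouse 2 and mouse 3 (x axis, deposited log unit), with a tick at the mean and a line of 1 SD to each side (n = 3), black for the 20 called genes and grey for the 14 not called. Dpys stands lowest at -2.01, and the called genes lie wholly left of 0.

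Pyrimidine breakdown was represented by 1 measured gene of the 3 listed, and it had the lowest mean of the 34. Dpys encodes dihydropyrimidinase, which opens the ring of dihydrouracil and dihydrothymine. Its log ratios in mice 1, 2 and 3 were -1.82, -2.31 and -1.90. All 3 mice were far below 0, and the mean of -2.01 ± 0.261 (SD, n = 3) had an adjusted p of 5.04e-05. Among the 7211 named genes tested it ranked 10 from the lowest. That mean stands for a 4.02-fold difference if the logarithm has base 2, a 7.44-fold one if it is natural and a 102-fold one if it has base 10. The enzymes before and after it in the chain, Dpyd and Upb1, had no row.

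Both enzymes of creatine synthesis fell. Gatm transfers the amidino group of arginine to glycine, a step for which kidney is the main site, and stood at -1.27, -1.04 and -1.20 in mice 1, 2 and 3. Its mean was -1.17 ± 0.117 (SD, n = 3; adjusted p = 8.63e-05), and the mice lay close together. Gamt, which methylates the product to creatine, gave -0.61, -0.37 and -0.31, a mean of -0.43 ± 0.157 (adjusted p = 0.00567). The fall of Gatm was the larger in every mouse, by a mean of 0.74 in the log unit (Gatm minus Gamt, -0.74 ± 0.126).

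The branched-chain amino acids leucine, isoleucine and valine share their first steps, and the array measured a contrast between them. The transaminases that start the pathway were not called. Cytosolic Bcat1 gave 0.52, -0.087 and 0.21 in mice 1, 2 and 3, a mean of 0.22 ± 0.306 (SD, n = 3; adjusted p = 0.175) with a 95% interval from -0.059 to 0.49. Mitochondrial Bcat2 gave 0.086, 0.0195 and 0.14, a mean of 0.082 ± 0.0612, and its 95% interval ran from -0.078 to 0.24. Bcat2 was the only one of the 34 genes above 0 in all 3 mice.

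The 3 listed subunits of the branched-chain ketoacid dehydrogenase, the mitochondrial complex that commits the carbon skeletons to oxidation, all fell. Bckdha, the alpha subunit of its decarboxylase, was at -0.59, -0.59 and -0.73, with a mean of -0.63 ± 0.0792 (SD, n = 3; adjusted p = 0.000606). Bckdhb, the beta subunit, was at -0.95, -0.79 and -0.59 (mean -0.78 ± 0.183, adjusted p = 0.000642). Dbt, the core acyltransferase, was at -0.93, -0.44 and -0.52 (mean -0.63 ± 0.264, adjusted p = 0.00343). Bckdhb was below Bckdha in mice 1 and 2 and above it in mouse 3. It was below Dbt in every mouse, by 0.0192, 0.35 and 0.067.

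Further down, the leucine and propionate arms each had a gene that fell. Ivd, isovaleryl-CoA dehydrogenase of the leucine arm, was at -0.53, -0.60 and -0.65, a mean of -0.59 ± 0.0624 (SD, n = 3; adjusted p = 0.00071). Mmut, the vitamin B12-dependent mutase that turns methylmalonyl-CoA into succinyl-CoA, was at -0.52, -0.52 and -0.75, a mean of -0.60 ± 0.133 (adjusted p = 0.0012). Hibadh of the valine arm stood at -0.16, -0.16 and -0.14, and its small mean of -0.15 ± 0.0131 was not called (adjusted p = 0.101). Pccb, a subunit of propionyl-CoA carboxylase, had mice on both sides of 0, at 0.13, -0.078 and 0.12, with a 95% interval of the mean from -0.12 to 0.23.

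Of the 4 measured transaminases and glutamate enzymes, 2 fell. Glutamine synthetase, Glul, which fixes ammonia onto glutamate, had the larger fall, with log ratios of -0.80, -0.72 and -0.48 and a mean of -0.67 ± 0.167 (SD, n = 3; adjusted p = 0.00104). Cytosolic aspartate aminotransferase, Got1, was at -0.37, -0.22 and -0.17, a mean of -0.25 ± 0.103 (adjusted p = 0.0297), a call that was lost when any 1 mouse was left out (adjusted p between 0.0552 and 0.1). Its mitochondrial counterpart Got2 gave -0.29, -0.14 and -0.12 and was not called (mean -0.18 ± 0.0948, adjusted p = 0.0759). Got1 was below Got2 in each mouse, by only 0.047 to 0.079, so the called and the uncalled enzyme differed little. Glutamate dehydrogenase, Glud1, had mouse 1 at -0.69 and the other two at -0.094 and -0.20, and its mean of -0.33 ± 0.316 was not called (adjusted p = 0.0625), although without mouse 2 it was called at -0.44 (adjusted p = 0.0309).

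Among the enzymes of arginine, ornithine and proline, 1 of 3 tested fell. Ornithine decarboxylase, Odc1, the first enzyme of polyamine synthesis, was at -0.60, -0.46 and -0.42, a mean of -0.49 ± 0.0934 (SD, n = 3; adjusted p = 0.00192). Argininosuccinate synthase, Ass1, with which the proximal tubule makes arginine from citrulline, was at -0.058, -0.28 and -0.20 (mean -0.18 ± 0.11, adjusted p = 0.0934) and was called without mouse 1 (-0.24, adjusted p = 0.0256). Mitochondrial arginase, Arg2, had mouse 2 above 0 and the others below, at -0.0245, 0.26 and -0.14, and the sign of its mean of 0.0311 turned to -0.085 without mouse 2. The single ratio of proline dehydrogenase, Prodh, was -1.04 in mouse 1.

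Of the listed enzymes of tyrosine breakdown, Hpd and Fah were tested and Hgd had no row. Hpd, 4-hydroxyphenylpyruvate dioxygenase, fell, with -1.61 in mouse 1, -0.71 in mouse 2 and -0.89 in mouse 3 and a mean of -1.07 ± 0.477 (SD, n = 3; adjusted p = 0.00232). Mouse 1 was well below the others. Fah, which carries out the last step of the same pathway, gave -0.44, 0.16 and -0.0121 and was not called (mean -0.097 ± 0.307, adjusted p = 0.529), and its mean turned to 0.073 without mouse 1. In every mouse Hpd lay below Fah, by 0.87 to 1.17. Gstz1, an enzyme of the same pathway that is not on the list of 57, fell (mean -0.33 ± 0.151, adjusted p = 0.015). Its call was lost without mouse 2 (adjusted p = 0.0633), without mouse 3 (0.122) and with exact 0 values kept (0.151). Aromatic amino acid decarboxylase, Ddc, which makes dopamine in the proximal tubule, was at -0.12, -0.30 and -0.56, a mean of -0.33 ± 0.223 (adjusted p = 0.0307). Its call was lost without mouse 2 (-0.34, adjusted p = 0.068) and without mouse 3 (-0.21, adjusted p = 0.238). Qdpr, which regenerates tetrahydrobiopterin for phenylalanine hydroxylation, had mouse 1 at -0.51 and the others at 0.037 and -0.076, and was not called (adjusted p = 0.225).

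Both tested enzymes of the kynurenine pathway of tryptophan fell. Haao, which opens the ring of 3-hydroxyanthranilate on the way to NAD, gave -0.79, -0.82 and -0.88, a mean of -0.83 ± 0.0479 (SD, n = 3; adjusted p = 0.000188). That SD was the smallest among the called genes, but it is of values averaged over 2 rows that ordered the mice differently. The rows gave -0.62, -0.87 and -0.81, and -0.95, -0.77 and -0.95, in mice 1, 2 and 3. Kynureninase, Kynu, was at -0.53, -0.43 and -0.32, a mean of -0.43 ± 0.106 (adjusted p = 0.00371). Aadat, an aminotransferase that makes kynurenic acid, had a ratio in 2 mice, -2.30 in mouse 1 and -2.61 in mouse 3, both lower than any mean of the 34. When ratios on 2 arrays sufficed, its mean of -2.45 was called (adjusted p = 7.58e-05). Tdo2, the liver-type enzyme that starts the pathway, was at 0.054 and 0.15 in mice 2 and 3 and was not called in that setting (adjusted p = 0.427).

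Enzymes of betaine, glycine and one-carbon metabolism held 3 of the 6 lowest means. Bhmt, which passes a methyl group of betaine to homocysteine, was at -1.57, -1.08 and -1.16 in mice 1, 2 and 3, a mean of -1.27 ± 0.266 (SD, n = 3; adjusted p = 0.000213). Dmgdh, the mitochondrial enzyme that oxidises the dimethylglycine left by Bhmt, was at -0.93, -1.54 and -1.57, a mean of -1.35 ± 0.365 (adjusted p = 0.000375). Mouse 1 was the lowest for Bhmt and the highest for Dmgdh. Sardh, which acts on the sarcosine that Dmgdh produces, was at 0.098, -0.13 and -0.17 and was not called (mean -0.067 ± 0.144, adjusted p = 0.525). Dmgdh was below Sardh in every mouse, with a mean difference of -1.28 ± 0.222.

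Serine and glycine enzymes followed. Mitochondrial serine hydroxymethyltransferase, Shmt2, fell, with -0.68, -0.97 and -0.95 and a mean of -0.87 ± 0.161 (SD, n = 3; adjusted p = 0.000339). The cytosolic form, Shmt1, was at -0.27, -0.0099 and -0.15 and was not called, with a 95% interval of its mean from -0.33 to 0.039. In each mouse Shmt1 was the higher, by 0.41, 0.96 and 0.80. Gldc, the decarboxylase of the glycine cleavage system, was at -0.36, -0.15 and -0.27 (mean -0.26 ± 0.106, adjusted p = 0.0268), a call lost without mouse 3 (-0.25, adjusted p = 0.158). For these pairs of related enzymes the exact sign-flip test over 3 mice has a smallest two-sided p of 0.25, and no other test of the differences was run.

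Bhmt and Dmgdh are neighbours. In the RefSeq annotation of GRCm38.p6 the protein-coding genes Bhmt, Bhmt2 and Dmgdh follow one another on chromosome 13, and all 3 fell. Bhmt2, a related methyltransferase that is not on the list of 57, stood at -0.98, -1.34 and -1.14, a mean of -1.15 ± 0.179 (SD, n = 3; adjusted p = 0.000142). Bhmt and Bhmt2 are paralogs, and whether the probe of 1 also bound RNA of the other was not tested. Bhmt2 and Dmgdh point away from each other, with 133 bases between their start sites, so that their promoter windows overlap. Those bases (chr13:93674303-93674435, GRCm38.p6, plus strand) are shown because both flanking genes fell. Capitals mark the 6 CpG dinucleotides.
Bhmt2 to Dmgdh: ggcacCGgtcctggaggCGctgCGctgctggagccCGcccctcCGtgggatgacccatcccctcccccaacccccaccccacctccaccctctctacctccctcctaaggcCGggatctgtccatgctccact

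Lysine, D-amino acid and acylated amino acid enzymes had 1 fall among 3 tested. D-amino acid oxidase, Dao, a peroxisomal enzyme of the proximal tubule, was at -0.36, -0.41 and -0.17, a mean of -0.31 ± 0.127 (SD, n = 3; adjusted p = 0.0157), a call lost without mouse 2 (-0.26, adjusted p = 0.079). Pipox, a peroxisomal oxidase of pipecolate and sarcosine, was at -0.42, -0.072 and -0.22 and was not called (adjusted p = 0.0611), but it was without mouse 2 (-0.32, adjusted p = 0.0438). The aminoacylase Acy3 had mice on both sides of 0, at -0.29, -0.0184 and 0.070. Another aminoacylase, Acy1, which frees amino acids from their N-acetyl form, had 2 ratios, -1.47 in mouse 1 and -1.06 in mouse 3, and was called when 2 arrays sufficed (mean -1.26, adjusted p = 0.000778). Aass, which starts lysine breakdown, gave -0.81 in mouse 1 and no ratio elsewhere.

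The 23 listed genes that were not tested fall into 3 kinds. Ratios on 1 or 2 arrays were available for Prodh, Aass, Aadat, Acy1 and Tdo2, given above. The rows of Mccc1, Mccc2, Oat and Gcsh were exactly 0 on all arrays. No row carried the name of Dpyd, Upb1, Auh, Hibch, Pcca, Gpt, Asl, Hgd, Kmo, Amt, Ftcd, Cbs, Cth or Agxt2. Transsulfuration, through Cbs and Cth, was therefore not analysed here.

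A second row was available for 3 of the genes. For Haao the rows had means of -0.77 and -0.89, and all 6 ratios lay between -0.95 and -0.62, but mouse 1 was the highest in the first and the lowest in the second. For Ivd they were -0.70 and -0.49, below 0 in all mice in both rows, but mouse 1 was the highest in the first and the lowest in the second. The second row of Bckdha had 1 ratio, -1.29 in mouse 3, where the row used gave -0.73. All other tested genes rested on a single row.

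The arrays differed in how far the enzymes were lowered. Each carried a different mouse, so mouse and array cannot be told apart. Mouse 1 had the lowest of the 3 ratios in 19 of the 34 genes, or 55.9%, as in 34.7% of all features. Its median over the 34 genes was -0.51, against -0.34 in mouse 2 and -0.29 in mouse 3. Among the 20 called genes, mouse 1 was the lowest in 11. In 55 other genes of the same pathways, described below, mouse 1 was the lowest in 16 (29.1%). Their medians were -0.25, -0.22 and -0.27 in mice 1, 2 and 3. Across the 34 genes the ratios of mouse 1 had a Pearson correlation of 0.777 with those of mouse 2 and 0.823 with those of mouse 3, and mice 2 and 3 correlated at 0.942. Over all features the same pairs gave 0.805, 0.854 and 0.91, so mice 2 and 3 were closest there too. These values describe genes that share the control pool and are not independent replicates. Without mouse 1 the number of genes called lower was again 20, without mouse 2 it was 19 (and Bcat1 was called higher, at 0.37), and without mouse 3 it was 17.

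**Figure D3:**
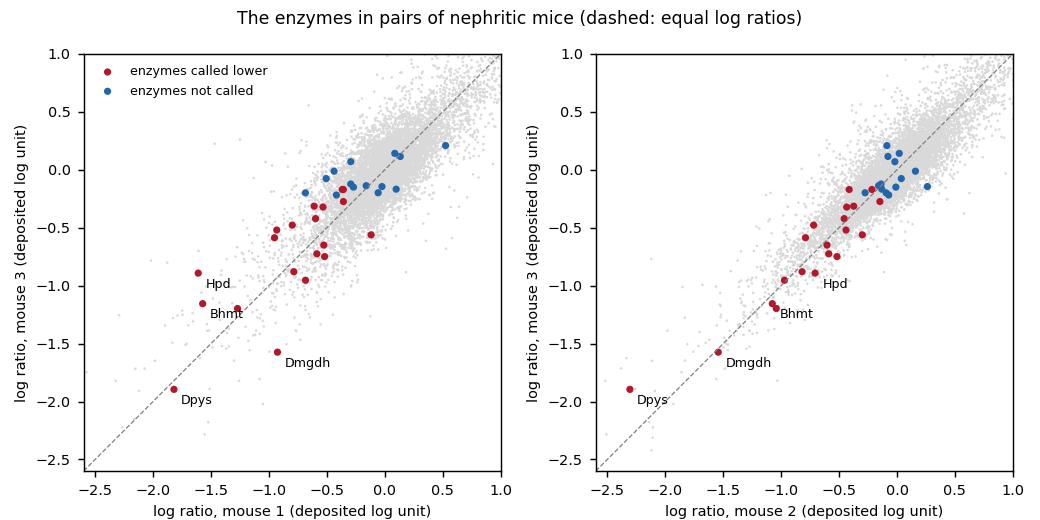
Log ratio of each enzyme in mouse 3 (y axis) against mouse 1 (left, x axis) and mouse 2 (right, x axis), deposited log unit, red for the 20 called genes, blue for the 14 not called, over all features tested in grey, of which the axes show values from -2.6 to 1. Hpd and Bhmt lie left of the dashed line of equal ratios in the left panel, being lowest in mouse 1, and Dmgdh lies right of it.

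Promoter windows, from 250 bases before to 50 after each RefSeq start, were searched on both strands for letters of 3 kinds of factor that act on metabolic genes of tubule and liver cells, and for the amino acid response element. Windows were available for 49 of the 57 genes, 16 of the 20 that fell and 13 of the 14 not called, and Dpys, Dbt, Kynu and Mmut were among those without one. The core of a direct repeat read by nuclear receptors, AGGTCANAG, was found in 4 of the 16 (Bckdhb, Bhmt, Dao and Haao), in 0 of the 13, in Amt among the listed genes that were not tested, and in 2.31% of the 27025 genes of the table. The letters CAAAGTCCA, typical of HNF4 sites, were found in 0 of the 16, in Pipox among the 13, in Aadat and Agxt2 among the others, and in 0.555% of all genes. An HNF1 core, GTTAATNAT, was found in Got2 alone of the 49 and in 0.94% of all genes, and the response element TGATGNAAT in 0 of the 49 and 1.08% of all. The longer forms of the repeat and of the HNF1 site were in no window of the 49 genes. The core forms were chosen after the files were seen, and a gene counted when any of its windows held the letters. The direct repeat and the HNF4 letters can overlap.

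The 4 matches of the direct repeat core in genes that fell are shown with the bases around them, each turned so that the motif, in capitals, reads forward. Bckdhb lies at chr9:83925008-83925037 (plus strand), Bhmt at chr13:93637811-93637840 (minus strand), Dao at chr5:114003798-114003827 (minus strand, from the window of 1 of its 3 starts) and Haao at chr17:83846833-83846862 (plus strand), all in GRCm38.p6. The match begins 119, 72, 75 and 61 bases before the start in the gene's own direction. A match of letters is a description and not a binding site.
Bckdhb: gcgggccgccAGGTCATAGcgtctccatcc
Bhmt: ccccagatcaAGGTCAGAGgcctgctattg
Dao: atgaaacacaAGGTCAAAGtcttcggcaat
Haao: aggttaccagAGGTCAAAGagctgagcaat

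Aadat, which had the lowest single ratio of the listed genes, held the HNF4-type letters 72 bases before its start, at chr8:60506041-60506070 (minus strand, motif in capitals).
Aadat: gcagaagggaCAAAGTCCAtccacagaggg

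The 250 bases before the start of Bhmt (chr13:93637759-93638008, minus strand) overlap no other gene of the table and are shown whole, since Bhmt had the lowest mean among the genes with the repeat core, which is in capitals.
Bhmt upstream: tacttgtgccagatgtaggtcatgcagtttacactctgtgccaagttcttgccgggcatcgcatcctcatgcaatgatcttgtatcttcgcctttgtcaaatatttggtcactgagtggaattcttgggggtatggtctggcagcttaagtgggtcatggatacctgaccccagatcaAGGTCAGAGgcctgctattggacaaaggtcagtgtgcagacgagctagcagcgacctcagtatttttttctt

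Other genes of the same pathways, on a list of 122 set out by role, were also lower more often than higher. Of 55 tested, 28 fell, 6 rose and 21 were not called, with a median of -0.22, beside the 22.3% of all features called lower and the 20.8% called higher. With exact 0 values kept, 9 were called lower and 4 higher. Among the 12 with the smallest p, 9 had fallen. Aldh6a1, the dehydrogenase shared by valine and thymine breakdown, was at -1.07, -0.86 and -1.25 (mean -1.06 ± 0.192, SD, n = 3; adjusted p = 0.000213). Afmid, which releases kynurenine, had a mean of -1.06 ± 0.2 (adjusted p = 0.000228). Aldh7a1, an aldehyde dehydrogenase of lysine and betaine metabolism, was at -0.95 ± 0.224 and Gnmt, which makes sarcosine from glycine, at -0.94 ± 0.231. Aldh1l1, a folate enzyme, stood at -0.85 ± 0.0934, the spermine synthase Sms at -0.66 ± 0.077, the amidase Nit2 at -0.66 ± 0.104 and the threonine pathway enzyme Gcat at -0.58 ± 0.0389. Of these, Aldh6a1, Afmid, Aldh7a1 and Gnmt lost their calls with exact 0 values kept (adjusted p from 0.0531 to 0.0722).

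The 6 genes that rose came from 5 of the roles on that list. Asparagine synthetase, Asns, was at 0.73, 0.64 and 0.72, a mean of 0.70 ± 0.0457 (SD, n = 3; adjusted p = 0.000354). Gch1, the first enzyme of tetrahydrobiopterin synthesis, was at 0.96, 0.77 and 0.65 (mean 0.79 ± 0.156, adjusted p = 0.000465), and the spermine oxidase Smox at 0.52, 0.60 and 0.62 (mean 0.58 ± 0.0534, adjusted p = 0.000747). The remaining 3 were singled out from their values: the serine-synthesis enzyme Psat1 at 0.54 ± 0.291, the mitochondrial folate enzyme Mthfd2 at 0.54 ± 0.138 and the uridine-cleaving Upp1 at 0.28 ± 0.0288. Psph, which acts after Psat1 in serine synthesis, fell (mean -0.35 ± 0.201, adjusted p = 0.0201), a call lost without mouse 2 (adjusted p = 0.0928) and without mouse 3 (0.106). Leaving out mouse 3 ended the call of Upp1 (0.29, adjusted p = 0.102), and Gch1, Psat1 and Mthfd2 lost theirs with exact 0 values kept.

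**Figure D4:**
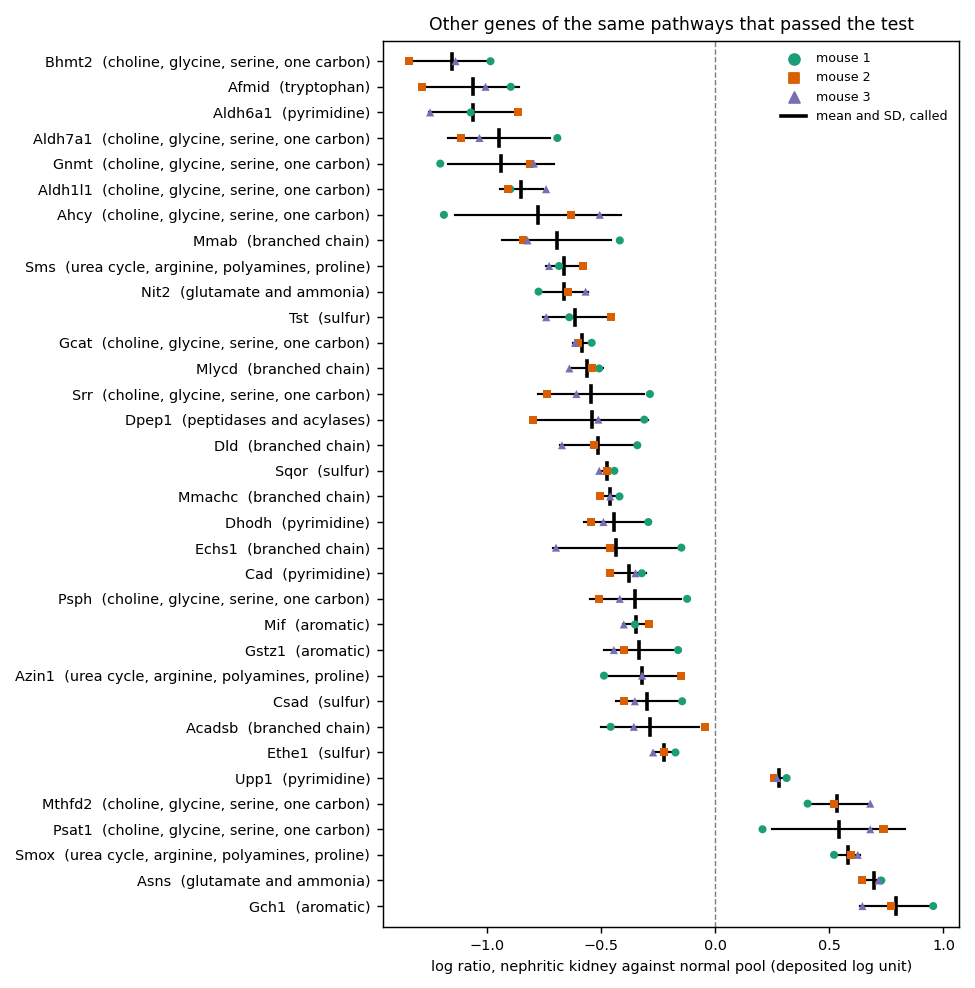
Log ratio of the 34 other pathway genes that passed the test (rows) in each mouse (x axis, deposited log unit), with a tick at the mean and a line of 1 SD to each side (n = 3). The 28 that fell run from Bhmt2 at -1.15 upward, and the 6 that rose end with Gch1 at 0.79.

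Markers of cell types moved in both directions. Over all features, 22.3% were called lower and 20.8% higher. Of 22 proximal tubule markers that are not amino acid enzymes, 14 were tested, 9 fell and 0 rose, among them the endocytic receptor Cubn at -0.88 ± 0.0644 and the phosphate transporter Slc34a1 at -1.22 ± 0.278 (SD, n = 3), which moved to -0.59 (call lost) and -0.71 with exact 0 values kept. The sum of the 14 log ratios was -7.47 in mouse 1, -4.72 in mouse 2 and -4.95 in mouse 3. Slc7a7 was at 0 on all arrays. Of 12 macrophage and dendritic cell markers, 11 were tested and all 11 rose, with sums between 9.70 and 11.6. In the loop of Henle and distal tubule list 3 of 6 tested genes fell, with sums of -5.003, -3.12 and -3.24 in mice 1, 2 and 3, and Umod was at 0 on all arrays. In the collecting duct list 3 of 7 fell and 1 rose, with sums of -3.12, -3.64 and -2.29. Podocyte sums lay between -0.48 and -0.0004, and in the fibroblast list 5 of 7 rose, with sums of 9.79, 6.60 and 7.38 in mice 1, 2 and 3. Of 2 tested podocyte genes 1 fell. Of 3 tested liver genes 2 fell, Alb and Apoa2, with sums of -2.93, -2.404 and -2.502 in mice 1, 2 and 3, while Apoa1 and Serpina1a were at 0 on all arrays. The proximal tubule, distal tubule and liver lists were lowest in mouse 1, as 19 of the 34 enzymes were. The collecting duct, podocyte, macrophage and fibroblast lists were lowest in mouse 2, and the fibroblast list was highest in mouse 1. The part of any of these cell types in the enzymes' values was not tested.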

How the data were processed

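Total RNA of kidney from 3 nephritic mice was compared with 1 pool of 5 normal mice on 3 two-colour arrays. The deposited values are log ratios, and the sources used here give neither their base and direction nor the scanner, background correction or normalization. Column medians over values other than 0 were 0.0151, 0.016 and 0.0171 in mice 1, 2 and 3, and usable ratios numbered 11238, 10998 and 11930 of 16281 rows. The number of arrays limits the precision. Exact 0 was treated as missing.

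Rows were named by the platform annotation, updated through gene identifiers in RefSeq (GRCm38.p6, names, neighbours and promoter windows only): 13738 rows had 1 symbol, 52 several and 2491 none. Rows with ratios on all arrays were centred on the array median and averaged per gene. Limma 3.58.1 in R 4.3.3 (an intercept-only lmFit, then eBayes, whose prior SD was 0.134 on 4.85 degrees of freedom) tested 8449 features, two-sided, with Benjamini-Hochberg adjustment over all. The fit was tested on simulated data.

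The members, lists and tests were chosen with earlier results of these data known. All members may be named. Of other pathway genes, up to 12 called with the smallest p were named. Gstz1, Psat1, Psph, Mthfd2 and Upp1 were added after their values were seen. Of each marker list, up to 4 genes were named. Alternatives were no centring, scaling, rows singly, ratios on 2 arrays, exact 0 kept, a filter on SD, a robust prior, array weights, an unmoderated test and each mouse left out. A planned comparison of protein sequences was not made.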

Additional observations from a re-analysis of the deposited data

How the results depend on the processing

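No paired analysis was possible because there was 1 group of mice against 1 pool. No centring, scaling, rows tested singly and a robust prior changed the call of none of the 34 enzymes. Keeping exact 0 gave 986 calls over all features, 5 of 43 tested enzymes lower, and 9 other pathway genes lower. The unmoderated test gave 0, 0 and 0, and 0 other pathway genes higher. Leaving out the fifth of features with the lowest SD left 30 enzymes tested and 18 called lower. Ivd and Haao, called in the main fit, were filtered out, as were Hibadh and Bcat2. Got1 lost its call and Glud1 was added. In this filtered setting limma's adjusted p followed the mean with little regard to a gene's own SD, at 9.47e-72 for Dpys from 3 arrays. Hpd (mean -1.07, SD 0.477) had 4.51e-21 and Aldh6a1 (mean -1.06, SD 0.192) had 1.05e-20. The counts of this setting are therefore no check on the spread between mice. With array weights 5194 features were called, 25 enzymes lower (Hibadh, Got2, Glud1, Ass1 and Pipox added) and 1 higher (Bcat1), and Arg2 and Acy3 turned to -0.071 and 0.025. Leaving out 1 mouse gave 2202 to 4193 calls over all features (2202 without mouse 3), 17 to 20 enzymes lower, 0 to 1 higher, medians from -0.39 to -0.32, 20 to 29 other pathway genes lower and 5 to 6 higher. Over these, Fah ran from -0.225 to 0.073 (above 0 without mouse 1), Acy3 from -0.16 to 0.026 (above 0 without mouse 1) and Arg2 from -0.085 to 0.12 (below 0 without mouse 2). The cause was not tested. With exact 0 kept, the features tested rose to 13241. Signal over background was not analysed here.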
